A study of Mus musculus with 4 samples.

Results

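The ZIC genes encode transcription factors with C2H2 zinc fingers that are close relatives of the GLI factors of hedgehog signalling. The rule took the rows of the count table whose Ensembl ID maps to Zic1, Zic2, Zic4 or Zic5 in the GENCODE annotation of GRCm38, which found all 4 of these genes among 55487 gene IDs. All 4 passed the filter on low counts that left 20947 genes. The members were chosen by family name and not by their values, but with earlier results of these data known.

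In the mouse embryo, ZIC factors are expressed in the dorsal neural tube and its midline, in the developing cerebellum, in the meninges (the membranes between brain and skull) and in dorsal paraxial mesoderm. They act in neural tube closure, neural crest induction and patterning of the midline. In humans, gain-of-function variants of ZIC1 cause premature fusion of the coronal suture, the seam between the frontal and parietal bones, and variants of ZIC2 cause holoprosencephaly. Each of the 4 genes lies next to another of them on the chromosome, with the neighbours transcribed from opposite strands.

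Poly(A) RNA was sequenced from the roof of the skull (calvaria) of mouse embryos at embryonic day E14.5, when this bone begins to form. The first group was 2 libraries of the frontal bone, which arises mainly from cranial neural crest. The other was 2 libraries of the parietal and interparietal bones together, of which the parietal bone arises mainly from head mesoderm and the interparietal bone from both sources. The labels give no strain, genotype, sex or treatment, no number of embryos per library and no statement that the libraries came from separate embryos, so the tests below weigh differences only against the spread among the 4 libraries, which may be technical.

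The frontal libraries held 29598388 and 35555013 counts in all, against 24069177 and 26645504 counts in the parietal-interparietal libraries. The 2 libraries of each group differed by more than sampling noise. The mean chi-square per gene with 1 degree of freedom was 9.0 between the frontal libraries and 3.36 between the parietal-interparietal libraries, or 4.50 and 1.68 if both mates of each read pair were counted. Markers of brain were present in both groups, so the libraries held more than bone, and the values below are those of the whole dissected tissue. In such bulk tissue, fewer cells of a type and less RNA per cell cannot be told apart.

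Zic1 (ENSMUSG00000032368) lies on chromosome 9 of GRCm38, from 91358058 to 91365810 on the minus strand. Zic4 (ENSMUSG00000036972) lies at 91362413 to 91389348 on the plus strand of the same chromosome. The spans of these genes overlap by 3398 bp, because 1 of the 12 annotated Zic4 transcripts starts inside Zic1, and their exons share 60 bp. Zic5 (ENSMUSG00000041703) lies on chromosome 14, from 122456795 to 122465677 on the minus strand, and Zic2 (ENSMUSG00000061524) at 122475435 to 122479852 on the plus strand, 9758 bp from Zic5. Where exons overlap and the strand setting of the counting is not given, the shared reads of a gene and its antisense partner cannot be told apart.

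**Figure D1:**
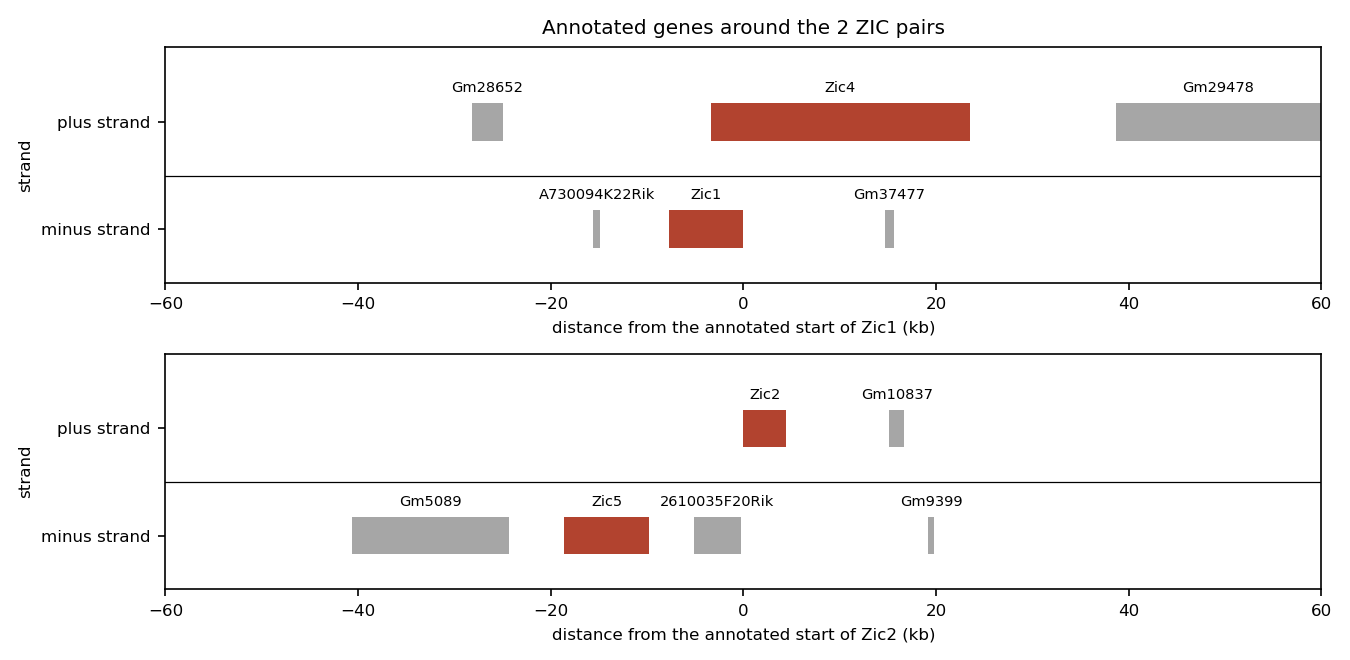
Annotated genes around Zic1 and Zic4 (upper panel) and around Zic5 and Zic2 (lower panel), drawn by strand against the distance in kb from the annotated start of Zic1 or Zic2. The ZIC genes are in red and other annotated genes in grey, Gm29478 runs past the right edge, and in both panels the ZIC neighbours lie on opposite strands, with overlapping spans only for Zic1 and Zic4.

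The start regions of 3 of these genes are shown to describe their letters. No similarity between the windows was computed, and no link to the fold changes given below was tested. They are RefSeq windows of build GRCm38.p6, from 250 bases before to 50 after the annotated start, each 5′ to 3′ on the gene's own strand, and Zic2 is named only. The Zic1 window is chr9:91365719-91366018 (minus strand), the Zic4 window chr9:91368722-91369021 (plus strand) and the Zic5 window chr14:122465609-122465908 (minus strand). The Zic4 window surrounds a start further along the gene than the outermost one, at 91362413, whose own region was not searched. Capitals mark matches to the letters searched, which are given after the sequences.
Zic1: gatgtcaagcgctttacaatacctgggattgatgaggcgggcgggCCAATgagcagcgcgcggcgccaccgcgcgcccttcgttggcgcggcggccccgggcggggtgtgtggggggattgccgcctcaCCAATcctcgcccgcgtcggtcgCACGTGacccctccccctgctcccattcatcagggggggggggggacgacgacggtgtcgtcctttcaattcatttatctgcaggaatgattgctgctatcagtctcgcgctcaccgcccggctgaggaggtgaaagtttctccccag
Zic4: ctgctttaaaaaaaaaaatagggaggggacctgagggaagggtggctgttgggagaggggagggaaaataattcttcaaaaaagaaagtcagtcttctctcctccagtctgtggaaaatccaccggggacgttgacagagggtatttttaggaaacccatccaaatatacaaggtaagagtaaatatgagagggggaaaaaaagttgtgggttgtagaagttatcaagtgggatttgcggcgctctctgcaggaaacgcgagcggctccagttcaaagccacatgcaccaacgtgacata
Zic5: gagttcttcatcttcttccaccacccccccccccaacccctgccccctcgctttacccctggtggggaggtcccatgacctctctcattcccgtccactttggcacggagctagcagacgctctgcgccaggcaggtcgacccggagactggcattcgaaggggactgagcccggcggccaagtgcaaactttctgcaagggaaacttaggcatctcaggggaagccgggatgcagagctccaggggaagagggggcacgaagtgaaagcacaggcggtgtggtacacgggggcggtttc

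Both strands were searched for 5 motifs. For the CCAAT box these were the letters CCAAT. For the canonical E-box the letters were CACGTG, for the TATA box TATAAA, for the core of ZIC binding sites CAGCAGG, and for the GLI binding site GACCACCCA. The Zic1 window held 2 CCAAT boxes, which began 205 and 121 bases before the start, and 1 E-box 98 bases before it, with no overlap between these matches. The Zic4 and Zic5 windows held none of the 5 motifs, and no window held a TATA box, ZIC core or GLI site. Among all 32851 RefSeq windows of this length, 37.4% held the CCAAT box, 7.15% the E-box, 13.6% the TATA box, 10.5% the ZIC core and 0.253% the GLI site. The Zic1 window was rich in CpG, with 31 CG dinucleotides and 65.3% G or C, whereas the Zic4 window had 8 and 46.0%, and the Zic5 window 15 and 62.7%. The median over all windows was 7 CG dinucleotides and 52.7% G or C. These matches describe letters in the windows and not sites in use.

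All 4 ZIC genes were expressed in both groups, and none differed between frontal and parietal-interparietal libraries by a margin that passed the test. Each was slightly lower in both frontal libraries than in both parietal-interparietal libraries, by 1.12-fold to 1.36-fold. Levels are in CPM, each gene's share of a library's counts expressed per 1e+06 after TMM scaling (edgeR's trimmed mean of M-values), and ± after a mean level is the SD over n = 2 libraries.

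Zic1, a factor of the dorsal neural tube, cerebellum and meninges, was at 52.8 and 56.8 CPM in frontal libraries 1 and 2, against 64.9 and 63.2 CPM in parietal-interparietal libraries 1 and 2. The groups did not overlap. Frontal libraries averaged 54.8 ± 2.84 CPM, against 64.0 ± 1.2 CPM for the parietal-interparietal pair, a log2 fold change of −0.22 ± 0.09 SE (edgeR quasi-likelihood test, adjusted p = 0.145). Zic1 was the most abundant of the 4 by counts, with 1518 to 2000 counts per library, and so had the smallest counting error.

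Zic4, which is often coexpressed with its neighbour Zic1, was at 29.5 and 29.1 CPM in the frontal libraries, against 35.1 and 34.7 CPM in the parietal-interparietal libraries. The libraries of a group lay close together and the groups did not overlap. The means of 29.3 ± 0.243 and 34.9 ± 0.306 CPM gave a log2 fold change of −0.25 ± 0.10 SE (edgeR adjusted p = 0.141).

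Zic2, which acts in forebrain division and in the routing of retinal axons, was at 14.2 and 10.5 CPM in the frontal libraries, against 18.1 and 15.3 CPM in the parietal-interparietal libraries. Libraries of the same group differed most for this gene, with frontal library 2 lowest and parietal-interparietal library 1 highest. The exact 95% Poisson intervals of frontal library 1 (12.8 to 15.6 CPM) and parietal-interparietal library 2 (13.9 to 16.9 CPM) overlapped. The log2 fold change was −0.44 ± 0.17 SE (edgeR adjusted p = 0.127), from a frontal mean of 12.3 ± 2.56 CPM against a parietal-interparietal mean of 16.7 ± 1.98 CPM.

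Zic5, a factor of neural tube closure and neural crest, was at 15.5 and 15.7 CPM in the frontal libraries, against 17.5 CPM in both parietal-interparietal libraries. The groups did not overlap, but the difference was the smallest of the 4. The log2 fold change was −0.16 ± 0.13 SE (edgeR adjusted p = 0.455), from means of 15.6 ± 0.139 and 17.5 ± 0.0330 CPM.

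**Figure D2:**
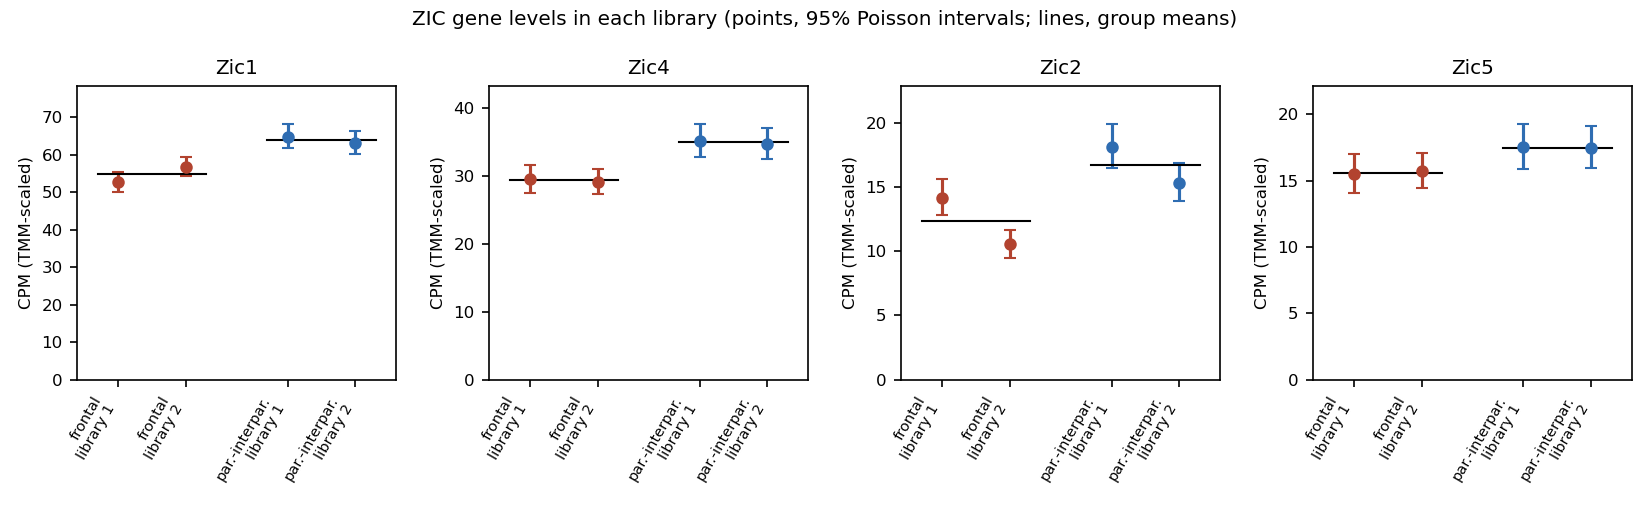
TMM-scaled CPM (vertical axes, each from 0) of the 4 ZIC genes in each library, with frontal libraries in red, parietal-interparietal libraries in blue, exact 95% Poisson intervals as bars and group means as black lines. In every panel both frontal points lie below both parietal-interparietal points, from 52.8 and 56.8 against 64.9 and 63.2 CPM for Zic1 to 15.5 and 15.7 against 17.5 CPM for Zic5.

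Counted by test, 0 of 4 ZIC genes were called by edgeR, where 2657 of 20947 genes (12.7%) were called in either direction, 1309 higher and 1348 lower. With total-count scaling the split was 984 higher and 1606 lower. At an unadjusted p under 0.05 edgeR had 3 of 4, all but Zic5, where 27.1% of all genes passed. DESeq2 called 0 of 4 and had 0 of 4 at an unadjusted p under 0.05. Its lowest unadjusted p, for Zic2, was 0.0508. Both frontal libraries lay below both parietal-interparietal libraries for 4 of 4 ZIC genes, and for 28.4% of all genes tested. These 4 genes are 2 neighbouring pairs and were read in the same 4 libraries, so they are not 4 separate observations. Their median log2 fold change was −0.24, against 0.01 for all genes tested.

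A call that was missed does not show equal levels. The 95% interval of the log2 fold change, not adjusted for the number of genes, was −0.43 to −0.02 for Zic1, −0.48 to −0.03 for Zic4, −0.82 to −0.06 for Zic2 and −0.45 to 0.12 for Zic5. Its lower bound was a fold of 1.77 lower in frontal libraries for Zic2, and of 1.35, 1.39 and 1.36 lower for Zic1, Zic4 and Zic5. Larger absolute log2 fold changes were found for 57.5% of all genes tested in the case of Zic1, 53.2% for Zic4, 32.6% for Zic2 and 67.4% for Zic5.

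The result turned on single libraries. Without frontal library 1, Zic2 was called lower (log2 fold change −0.66, edgeR adjusted p = 0.000129) and Zic4 was called lower (−0.26, adjusted p = 0.0495). Without frontal library 2, Zic1 was called lower (−0.29, adjusted p = 0.00109), Zic4 again (−0.25, adjusted p = 0.0490), and Zic2 was at −0.25 and not called. Each of these fits assumes that the lone frontal library varies like the parietal-interparietal pair, and in them 5373 and 7279 genes were called over all. No ZIC gene was called without either parietal-interparietal library. The range of the adjusted p over all 12 settings was 0.00109 to 0.682 for Zic1, 0.000129 to 0.622 for Zic2, 0.0490 to 0.633 for Zic4 and 0.312 to 0.849 for Zic5.

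**Figure D3:**
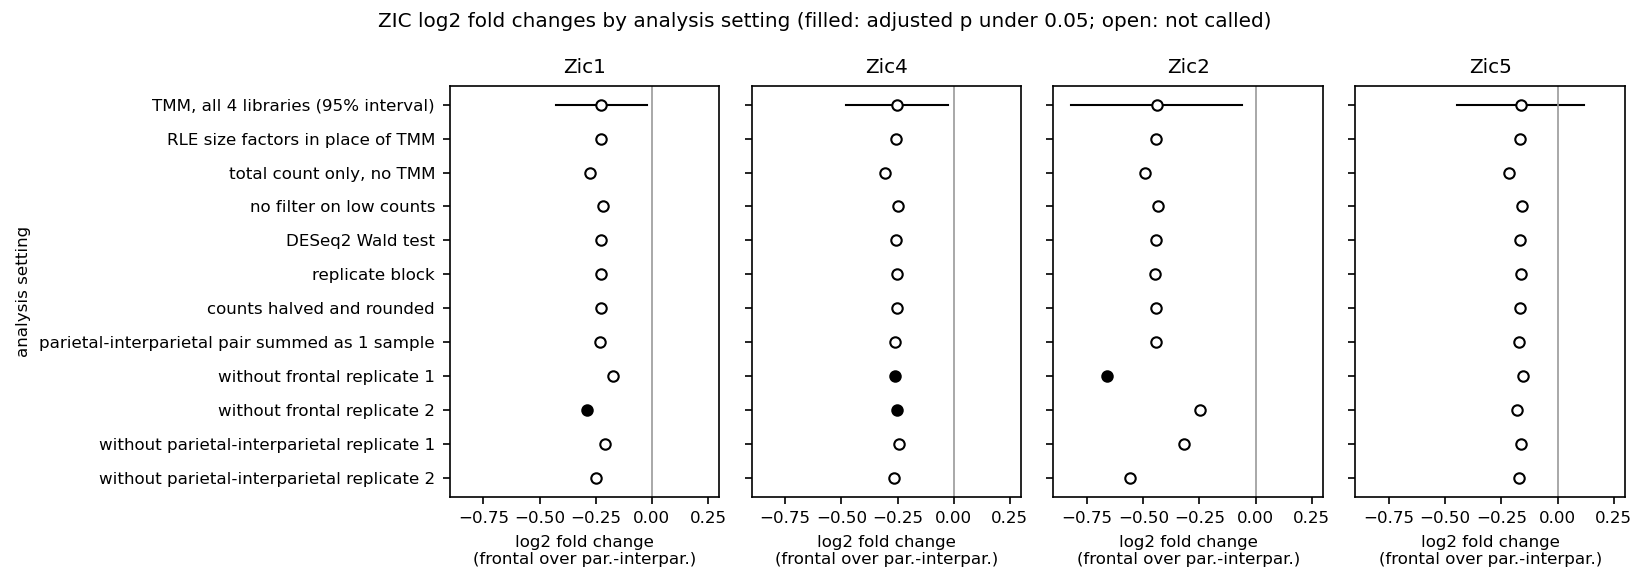
Log2 fold change of each ZIC gene (horizontal axes, frontal over parietal-interparietal) in 12 analysis settings, filled where the adjusted p was under 0.05, with the 95% interval drawn for the TMM setting with all 4 libraries. All points lie below 0, and filled points appear only without a frontal library, for Zic1, Zic2 and Zic4.

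Levels of different genes can be set side by side only per length, here in CPM per kb of merged exons. Zic1 was highest, at 9.62 ± 0.498 in frontal and 11.2 ± 0.211 in parietal-interparietal libraries (SD, n = 2 each), with 74.4% of 15565 tested protein-coding genes below it. Zic2 came next at 4.29 ± 0.888 in frontal and 5.81 ± 0.687 in parietal-interparietal libraries, followed by Zic5 at 3.19 ± 0.0284 and 3.58 ± 0.00675 and Zic4 at 2.83 ± 0.0235 and 3.38 ± 0.0296. In every library the order was Zic1, Zic2, Zic5 and Zic4, but Zic2 in frontal library 2 (3.66 CPM per kb) came close to Zic5 (3.21). The place of Zic4 rests on its length. Its merged exons span 10335 bp over 12 annotated transcripts, and by the longest annotated transcript, of 3891 bp, it was at 7.52 CPM per kb in frontal libraries, against 8.97 CPM per kb in the parietal-interparietal pair, above Zic2 and Zic5 and below Zic1.

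The balance within a neighbouring pair needs no library size. Zic4 made up 35.8% and 33.9% of the counts of Zic4 and Zic1 together in the frontal libraries, against 35.1% and 35.4% in the parietal-interparietal libraries. The groups overlapped, and the 95% Wilson intervals of all 4 libraries shared the range from 33.9% to 35.6%. The log2 ratio of Zic4 to Zic1 differed by −0.03 between the groups (exact two-sided permutation test over 4 libraries, p = 1.00, smallest possible 0.333), and by 0.03 without frontal library 2.

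Zic5 made up 52.3% and 59.8% of the counts of Zic5 and Zic2 in the frontal libraries, against 49.1% and 53.3% in the parietal-interparietal libraries. Frontal library 2 stood above the other 3 libraries, with a Wilson interval of 56.7% to 63.0% against 48.9% to 55.6% in frontal library 1. With counts halved, in case both mates of each read pair were counted, these intervals were 55.2% to 64.1% and 47.5% to 56.9% and overlapped. The log2 ratio of Zic5 to Zic2 differed by 0.28 between the groups (exact two-sided permutation test, p = 0.667), by 0.51 without frontal library 1 and by 0.06 without frontal library 2.

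**Figure D4:**
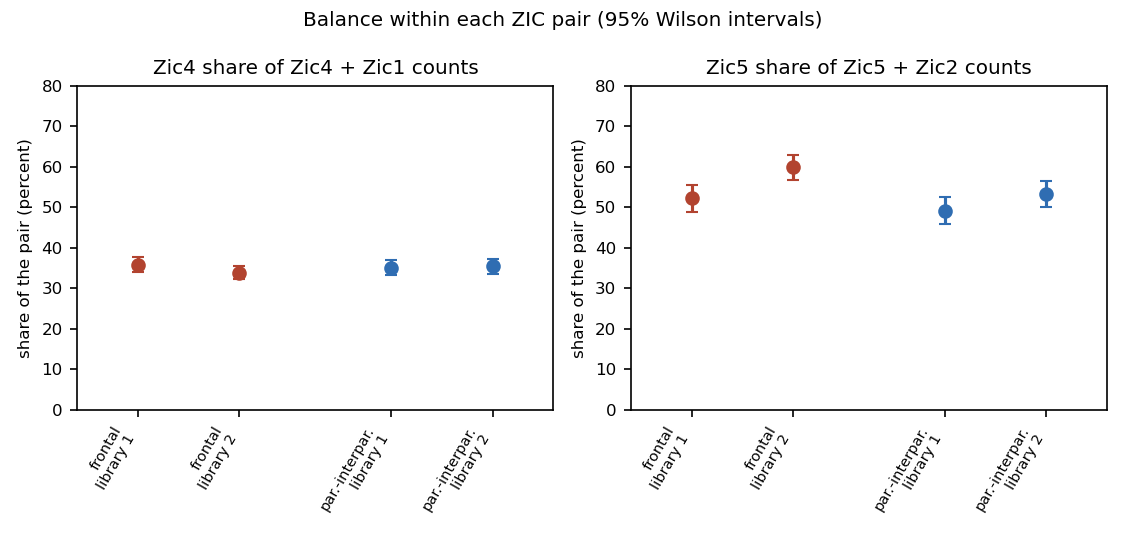
Share of Zic4 in the counts of Zic4 and Zic1 (left) and of Zic5 in the counts of Zic5 and Zic2 (right), in percent, in frontal (red) and parietal-interparietal (blue) libraries with 95% Wilson intervals. The left shares lie between 33.9% and 35.8%, and on the right frontal library 2 is highest at 59.8%.

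Across the 4 libraries, centred log2 CPM placed Zic1, Zic4 and Zic5 at Euclidean distances of 0.0910 to 0.0926 from each other, and Zic2 at 0.381 to 0.457 from them. Zic4, the neighbour of Zic1 on the chromosome, was no nearer to it in pattern (0.0917) than Zic5 was (0.0910). The genes nearest in pattern among 13860 protein-coding genes were Fbxl14, F2r and Bfar for Zic1 (distances 0.0106 to 0.0147), C1qb, Arid1a and Gtf2h1 for Zic4 (0.0112 to 0.0185), Tll1, Rtkn and Nipal1 for Zic2 (0.0365 to 0.0714) and Rabl2, Kirrel3 and Acat1 for Zic5 (0.00921 to 0.0157). Within a distance of 0.2 lay 2158 genes for Zic1, 1996 for Zic4, 120 for Zic2 and 2686 for Zic5. Far more genes thus had a pattern close to Zic1, Zic4 or Zic5 than to Zic2.

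Of 10 other genes around the ZIC loci, 7 were tested and 1 was called, a share near the 12.7% called among all genes. Gm37477, a gene model that its annotation marks as still lacking experimental proof, on the minus strand of chromosome 9 (91380519 to 91381402) within the span of Zic4, was at 0.974 and 1.33 CPM in the frontal libraries, against 3.27 and 2.91 CPM in the parietal-interparietal libraries. Both frontal libraries were lower, with a log2 fold change of −1.41 ± 0.37 SE (edgeR adjusted p = 0.0315). The call was lost without either parietal-interparietal library (adjusted p = 0.235 and 0.141) and with that pair summed as 1 sample (0.167). Its exons share 468 bp with exons of Zic4, so reads there could come from either strand.

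The noncoding gene 2610035F20Rik, which starts 236 bp from Zic2 and runs away from it on the opposite strand, was at 4.69 and 3.81 CPM in frontal libraries, against 2.99 and 3.46 CPM in parietal-interparietal libraries (log2 fold change 0.39 ± 0.27 SE, edgeR adjusted p = 0.395). It was not called, and its fold change was positive where that of Zic2 was negative. The nearest protein-coding genes beside Zic1 and Zic4 lay far away, Tbc1d2b at 1087254 bp from Zic1 and Plscr5 at 803588 bp from Zic4. Tbc1d2b was at 58.8 and 54.1 CPM in frontal against 54.0 and 53.9 CPM in parietal-interparietal libraries. Plscr5 had at most 2 counts in a library. Beside Zic5 and Zic2 the nearest protein-coding genes were the gene models Gm5089 and Gm10837, neither of which was called.

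The GLI relatives of the ZIC factors and the regulators of hedgehog signalling were a list of 15 tested genes, of which 1 was called higher, 2 lower and 12 not called. Over all genes 6.25% were called higher and 6.44% lower. Gli3, which in mouse acts largely as a repressor in the dorsal brain and limb, was at 73.3 and 81.7 CPM in frontal libraries, against 75.0 and 74.0 CPM in parietal-interparietal libraries (log2 fold change 0.06 ± 0.09 SE, edgeR adjusted p = 0.745). Ptch1, a hedgehog receptor that the pathway itself induces, was lower in frontal libraries, at 54.1 ± 2.66 CPM against 74.5 ± 2.47 CPM in the parietal-interparietal pair. The coreceptor Cdon was 1.23-fold higher, at 211 ± 4.17 against 172 ± 1.39 CPM. Ptch1 and Cdon were no longer called when either parietal-interparietal library was left out or the pair was summed, and the call of Cdon was also lost with total-count scaling. The median of the list was −0.08 log2 units, with 1 higher and 3 lower without frontal library 1, 2 and 4 without frontal library 2, 0 and 0 without parietal-interparietal library 1, and 0 and 1 without parietal-interparietal library 2.

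Of 11 genes reported to act downstream of ZIC factors in various animals or cells, 9 were tested, of which 2 were called lower and 7 not called (median −0.29 log2 units). Without frontal library 1 the list had 1 higher and 4 lower, without frontal library 2 it had 2 and 5, without parietal-interparietal library 1 it had 0 and 1, and without parietal-interparietal library 2 it had 0 and 2. En1 is a homeobox gene of midbrain and of the coronal suture. It was lower in frontal libraries by a fold of 2.48 (6.18 ± 0.506 against 15.3 ± 1.36 CPM, edgeR adjusted p = 0.000844). Pax3, a factor of dorsal neural tube and muscle progenitors, was 1.92-fold lower, a call lost without parietal-interparietal library 1. Apoe, which encodes apolipoprotein E, was at 357 and 291 CPM in frontal libraries, against 396 and 397 CPM in parietal-interparietal libraries. It was not called (edgeR adjusted p = 0.0735), but was called lower in 6 of the other settings, DESeq2 among them.

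The ZIC genes stood beside large differences in tissues that are known to express them. Of 18 tested genes of the meninges, 9 were lower in frontal libraries and 9 not called, with a median of −0.57 log2 units. Beside this list and each list below stand the shares over all genes, 6.25% called higher and 6.44% lower. Calls over all genes rose without a frontal library and fell without a parietal-interparietal library. Such shifts in a list are therefore not particular to it. Foxc1, a forkhead factor of meningeal and calvarial mesenchyme, was at 28.9 ± 3.10 CPM in frontal libraries, against 41.5 ± 2.28 CPM in the parietal-interparietal pair, and Foxd1, a forkhead factor of meninges, at 11.4 ± 0.102 against 16.9 ± 0.913 CPM. Neither was called with one parietal-interparietal library left out or the pair summed. Cldn11, a claudin of the arachnoid barrier, was 2.31-fold lower and Gjb2, a connexin of meninges, 1.89-fold lower. The summed level of the 18 genes was 745 and 810 CPM in frontal libraries, against 1173 and 1171 CPM in parietal-interparietal libraries, and none of them was at 0. Leaving out a frontal library gave 13 or 15 members called lower, and leaving out a parietal-interparietal library gave 6 or 7.

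Genes of the dorsal midline of the brain went both ways, with 9 of 20 tested higher, 4 lower and 7 not called (median 0.47 log2 units). Ttr, which encodes the transthyretin of the choroid plexus, was 27.6-fold higher in frontal libraries, and Wnt8b, a WNT ligand of the cortical hem, 9.25-fold higher. Wnt3a, a ligand of roof plate and hem, was at 3.76 and 4.23 CPM in frontal, against 3.76 and 4.38 CPM in parietal-interparietal libraries, and was not called. The summed level was 1115 and 1159 CPM in frontal libraries, against 324 and 333 CPM in parietal-interparietal libraries. Most of this gap was Ttr, at 748 and 778 CPM in frontal against 29.6 and 25.7 CPM in parietal-interparietal libraries. Without frontal library 2 the counts were 11 higher and 6 lower, without parietal-interparietal library 1 they were 8 and 1, and without parietal-interparietal library 2 they were 8 and 0.

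Cajal-Retzius cells, early neurons of the cortical surface that partly arise at ZIC-expressing sources, had 3 of 8 genes higher, 1 lower and 4 not called (median 0.08 log2 units). Reln, which encodes reelin, was at 71.9 and 71.0 CPM in frontal libraries, against 27.4 and 29.6 CPM in parietal-interparietal libraries. The summed level of the 8 genes was 205 and 210 CPM in frontal, against 189 and 183 CPM in parietal-interparietal libraries. The largest part of each sum was Ebf3, which went against the 3 higher calls. It was at 76.9 and 80.9 CPM in frontal, against 114 and 109 CPM in parietal-interparietal libraries. The single lower call, of Ebf3, was lost without either parietal-interparietal library.

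By median, the lists of dorsal forebrain and of midbrain and anterior hindbrain stood at opposite ends. All 15 tested genes of the dorsal forebrain were called higher in frontal libraries, with a median of 3.79 log2 units, and their summed level was 625 and 661 CPM in frontal against 123 and 121 CPM in parietal-interparietal libraries. The parietal-interparietal sums were uneven over the members. Bcl11b, 1.36-fold higher in frontal libraries, made up 51.3 and 52.3 CPM of them. Eomes, 335-fold higher in frontal libraries, made up 0.246 and 0.0737 CPM. These levels are 6 and 2 counts, so the size of that fold is uncertain (log2 fold change 7.74 to 9.42 with a library left out). Emx2, a homeobox factor of dorsal forebrain, was at 57.0 and 68.2 CPM in frontal, against 28.1 and 26.0 CPM in parietal-interparietal libraries. Of 15 tested genes of midbrain and anterior hindbrain, 8 were lower and 7 not called (median −1.12 log2 units), with a summed level of 63.9 and 80.3 CPM in frontal against 132 and 149 CPM in parietal-interparietal libraries. Without frontal library 2 the lower calls numbered 12. Barhl1, a homeobox factor of cerebellar granule cell precursors, was 5.32-fold lower. The ZIC genes, between −0.44 and −0.16 log2 units, lay between the medians of these lists. Their values lay inside the range of the midbrain and anterior hindbrain list. The same held for every other list except dorsal forebrain and skeletal muscle. Meningeal genes, for example, ranged from −1.47 to −0.06 log2 units and Cajal-Retzius genes from −0.54 to 2.04. The part of any of these tissues in the ZIC levels was not tested.

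**Figure D5:**
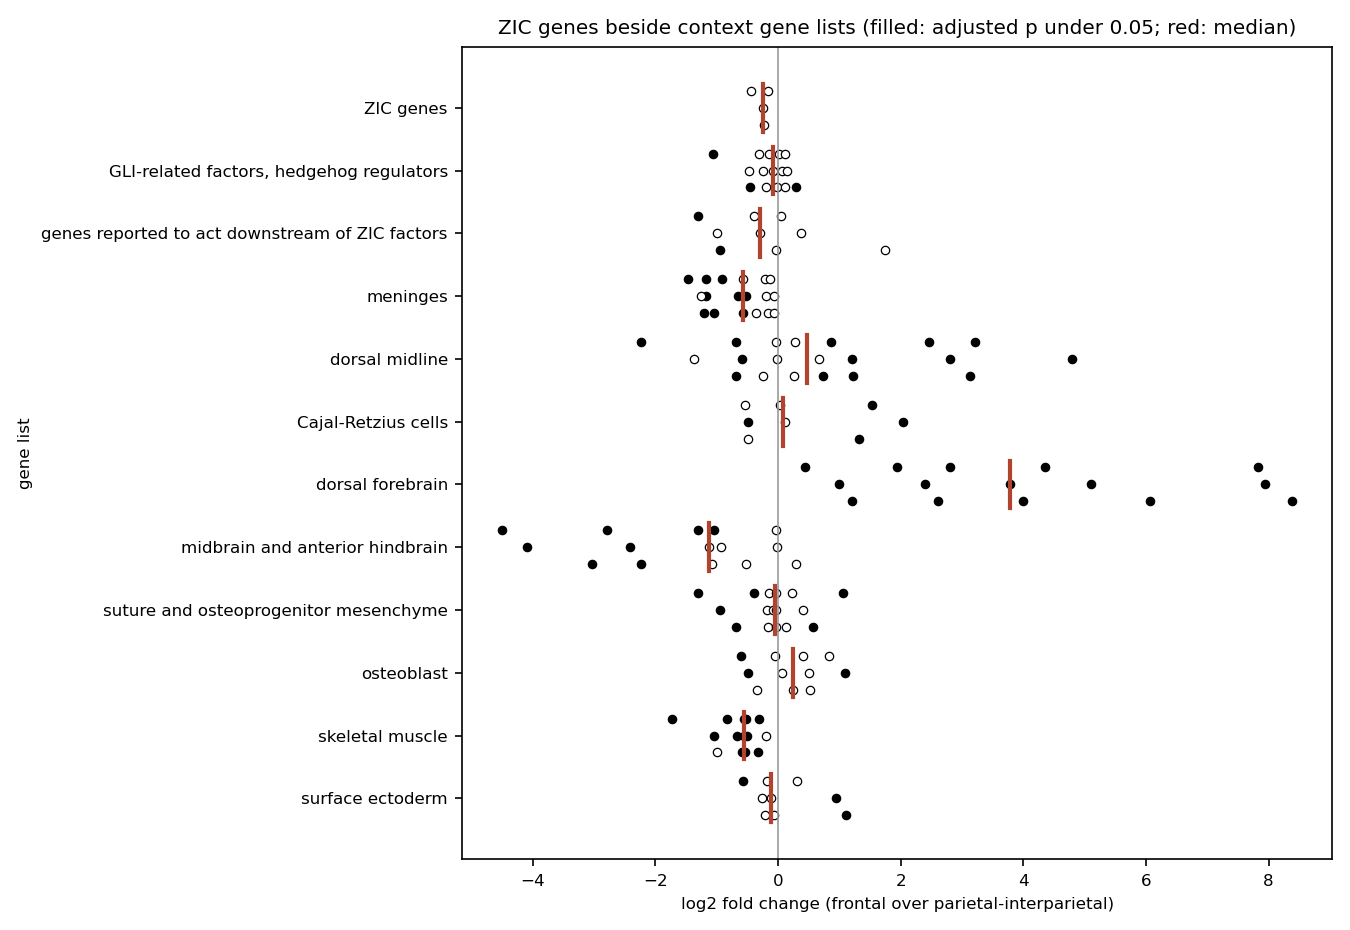
Log2 fold change (horizontal axis, frontal over parietal-interparietal) of the ZIC genes and of the tested members of 11 gene lists, filled where the edgeR adjusted p was under 0.05, with list medians in red. The 4 ZIC genes are open points near −0.24, while the dorsal forebrain genes have a median of 3.79 and the midbrain and anterior hindbrain genes one of −1.12.

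The list for sutures and bone-forming mesenchyme had 16 genes, 2 called higher, 4 called lower and 10 without a call (median −0.06 log2 units), with 4 higher and 6 lower without frontal library 1, 3 and 7 without frontal library 2, 0 and 3 without parietal-interparietal library 1, and 1 and 2 without parietal-interparietal library 2. Twist1, a helix-loop-helix factor that keeps the coronal suture open, was 1.31-fold lower in frontal libraries with no call once a parietal-interparietal library was left out, and Six2, a factor of craniofacial mesenchyme, was 1.92-fold lower. Of 11 tested osteoblast genes, 1 was higher, 2 lower and 8 not called (median 0.25 log2 units), and 1 further gene, Phospho1, was at 0 in all libraries. The summed osteoblast level went against the sign of that median, at 3805 and 3879 CPM in frontal libraries, against 4845 and 4806 CPM in parietal-interparietal libraries. Most of that sum was Col1a1 and Col1a2, the 2 lower calls. They were at 994 and 1461 CPM in frontal library 1, against 1490 and 2062 CPM in parietal-interparietal library 1. Ibsp, the higher call, was 2.13-fold higher in frontal libraries. The higher calls numbered 5 without frontal library 1 and 3 without frontal library 2. Runx2, the regulator of osteoblast commitment, was at 16.3 and 15.8 CPM in frontal, against 13.5 and 10.7 CPM in parietal-interparietal libraries, and was called higher only when a frontal library was left out.

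Skeletal muscle, whose progenitors in dorsal somites express Zic1, had 12 of 14 tested genes lower and 2 not called in frontal libraries (median −0.55 log2 units). Whether the muscle in these libraries carried ZIC transcripts was not tested. The summed level of the muscle genes was 1542 and 1462 CPM in frontal libraries, against 2097 and 2110 CPM in parietal-interparietal libraries. Without parietal-interparietal library 1 or 2, 4 and 6 of them were called lower. Surface ectoderm had 2 of 9 genes higher, 1 lower and 6 not called (median −0.11), with a summed level of 830 and 783 CPM in frontal against 873 and 854 CPM in parietal-interparietal libraries. Its counts were 3 higher and 3 lower without either frontal library, 2 and 0 without parietal-interparietal library 1, and 2 and 1 without parietal-interparietal library 2.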

How the data were processed

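The submitters' processing notes name the tools Trim Galore 0.6.7, HISAT2 2.1.0 and featureCounts 2.0.1 and the build GRCm38. Their roles and parameters, the annotation and the strand setting are unstated here. The deposited values are raw counts per Ensembl gene, which the authors did not normalize. Symbols and positions came from GENCODE vM21, which held 55227 of the IDs and lacked 260. Even numbers made up 68.3% to 74.4% of counts of 1 to 20, so the counts were also analysed halved.

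After filterByExpr (minimum count 10) and TMM scaling, edgeR 4.0.16 in R 4.3.3 ran a two-sided quasi-likelihood F-test of group alone, which left 2 residual degrees of freedom. The Benjamini-Hochberg adjustment covered all 20947 genes, and genes with an adjusted p under 0.05 were called. SE was taken as the size of the log2 fold change over the square root of F. The procedure was tested on simulated data. Poisson and Wilson intervals cover counting error only. DESeq2 was version 1.42.0.

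The members and the 11 lists (156 entries) were chosen with earlier results of these data known. Genes eligible to be named were the ZIC genes, the 4 list members with the lowest p, for every list, En1, Gli3, Apoe, Foxc1, Foxd1, Reln, Emx2 and Runx2, the 3 genes nearest in pattern to each ZIC gene (mean of at least 1 CPM, prior count 2), genes within 20 kb and the nearest protein-coding genes. Outside this rule, Wnt8b, Wnt3a, Bcl11b and Phospho1 were chosen after their values were seen. ZIC genes other than these 4 were not analysed here. One further gene that the naming rule takes is not reported here.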

Additional observations from a re-analysis of the deposited data

How the results depend on the processing

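The 4 ZIC genes stayed lower in frontal libraries in every setting tried: RLE or total-count scaling, no filter, DESeq2, the replicate block, halved counts, the parietal-interparietal pair summed, and each library left out. With a library left out, log2 fold changes ranged from −0.29 to −0.17 for Zic1, −0.66 to −0.25 for Zic2, −0.27 to −0.25 for Zic4 and −0.18 to −0.15 for Zic5, and the number of ZIC genes called from 0 to 2. The log2 difference of the Zic4 to Zic1 ratio ranged from −0.088 to 0.034. Genes called over all ranged from 865 to 7279 (423 to 3483 higher, 442 to 3796 lower), and were 791 (379 higher, 412 lower) with the pair summed, where fewer samples were fitted. The fits with a library left out also had fewer samples. In them, calls over all genes rose without a frontal library and fell without a parietal-interparietal library. The cause of these shifts, the one with the pair summed included, was not tested.

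Samples of the same number correlated at 0.02 in their deviations over genes. This gave no sign that the numbers pair libraries but cannot exclude it, and the labels state no pairing. With the replicate block 3306 genes were called and 0 ZIC genes, with Zic2 at −0.45 (adjusted p = 0.0524).

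Among other named genes, direction turned for Gli3 (−0.032 to 0.13 with a library left out), A730094K22Rik (−0.30 to 0.95), Gm5089 (−2.07 to 0.034) and Gm29478 (−0.12 to 0.16, and −0.026 with total counts), none of which was called with all 4 libraries. Of the remaining comparisons of named genes with a setting, 662 kept their direction and side of the threshold, 38 gained a call and 28 lost one. Choosing another gene length, added after the data were seen, moved Zic4 as given with its level. Zic2 and Zic5, with 371 to 553 counts per library, were the least precise.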
